A study of Mus musculus with 6 samples.

Results

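The proliferin genes Prl2c2, Prl2c3 and Prl2c4 were followed in 21EM15 cells, an epithelial line derived from the mouse lens. Their members were the probes whose platform gene symbol was 1 of these 3 names, which gave 4 of the 45281 probes and 3 of the 19057 named genes on the array. Prl2c2 had 2 probes, and Prl2c3 and Prl2c4 had 1 each. The genes were picked because their fitted changes between knockdown and control were among the larger upward ones, so these changes are given below as a description, without a test. The 3 knockdown samples had received a lentivirus that encodes an shRNA, a short hairpin RNA, directed at Tdrd7. The 3 control samples had received a lentivirus that encodes GFP. All 6 came from the same cell line, and no hairpin is named for the control construct. An effect of the hairpin or the vector therefore cannot be told apart from an effect of less Tdrd7. Total RNA was measured on 1-colour Illumina bead arrays, numbered 4 to 6 for knockdown and 1 to 3 for control as in the scanner table. The labels do not say whether the samples of a group were separate cultures, so the spread between them may be technical.

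Proliferins are secreted glycoprotein hormones of the prolactin family. In the mouse they were first met as messages induced by serum in growing fibroblasts, and they are made in large amounts by trophoblast giant cells of the placenta, where they act on blood vessels. The secreted protein carries mannose 6-phosphate and binds the mannose 6-phosphate receptor Igf2r, and transcription of the gene in cultured cells is known to respond to AP-1 factors and to the glucocorticoid receptor.

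The 3 symbols are not 3 well separated genes. In the RefSeq gene table used here (GRCm38.p6), Prl2c2 and Prl2c3 are entries on chromosome 13, and Prl2c4 is listed as a synonym of Prl2c3. The platform's gene identifier for Prl2c4 did not match any entry of that table. The transcripts are near-identical, so a probe may report more than 1 of them, and the probe sequences were not used here. Each probe is therefore shown by itself.

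The promoter windows below set Prl2c3 beside Prl2c5, a copy whose probe was not detected. No window was available for Prl2c2, so the likeness among the proliferin members themselves is not shown. The RefSeq promoter table (GRCm38.p6) held a window for Prl2c3 at chr13:12800030-12800329 on the minus strand and for the neighbouring copy Prl2c5 at chr13:13182466-13182765 on the plus strand. Each runs 5′ to 3′ over 250 bases before and 50 after the transcript start, with capitals on matches to the motifs named below.
Prl2c3: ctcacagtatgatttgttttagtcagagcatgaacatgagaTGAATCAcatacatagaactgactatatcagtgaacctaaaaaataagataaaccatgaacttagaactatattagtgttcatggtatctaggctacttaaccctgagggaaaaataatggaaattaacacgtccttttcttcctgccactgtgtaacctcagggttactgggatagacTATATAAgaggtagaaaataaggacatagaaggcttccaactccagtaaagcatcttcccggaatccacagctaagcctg
Prl2c5: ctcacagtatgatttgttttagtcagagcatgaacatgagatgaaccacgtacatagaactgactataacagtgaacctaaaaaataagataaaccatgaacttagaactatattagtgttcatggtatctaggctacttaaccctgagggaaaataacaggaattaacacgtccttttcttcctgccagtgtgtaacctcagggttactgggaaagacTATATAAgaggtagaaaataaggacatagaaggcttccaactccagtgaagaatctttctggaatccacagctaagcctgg
In a global alignment the windows were 96.0% identical over the columns without a gap, with 287 identical bases, 12 mismatches and 2 gapped columns. Searched on both strands, TGANTCA, a broad AP-1 pattern in which N is any base, matched the Prl2c3 window 1 time. This match, TGAATCA, has A at N and starts 209 bases before the transcript start. The pattern had no match in the Prl2c5 window. The pattern TATATAA, of the TATA box, started 30 bases before the start in Prl2c3 and 31 bases before it in Prl2c5. The letters TGTTCT, one arm of the glucocorticoid response element, matched neither window. The matches that were found do not overlap each other. Of 32817 mouse promoter windows of this length, 7.81% held TGANTCA, 3.25% held TATATAA and 19.0% held TGTTCT. A match is a run of letters and was not tested for binding.

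All 4 proliferin probes averaged higher on the knockdown arrays than on the control arrays, with fitted differences between 2.00-fold and 3.06-fold. Their signals were low throughout, at 81.3 to 377 intensity units, where the median probe of an array lay between 72.6 and 82.6. The detection p-value, the chance of such a signal from background beads, was under 0.05 in 21 of the 24 combinations of probe and array. The other 3 were all on control array 2.

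The brighter Prl2c2 probe, ILMN_2617996, had signals of 244, 377 and 205 on knockdown arrays 4, 5 and 6, against 189, 87.8 and 127 on control arrays 1, 2 and 3. Every knockdown array lay above every control array, by little between knockdown array 6 and control array 1. After background correction and quantile normalization the probe averaged 7.71 ± 0.42 log2 units in knockdown and 6.09 ± 0.79 in control (SD, n = 3 each). The log2 fold change was 1.61 ± 0.40 (SE), or 3.06-fold with a 95% interval from 1.63 to 5.76.

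The second Prl2c2 probe, ILMN_1259967, had signals of 141, 209 and 126 on knockdown arrays 4, 5 and 6, against 129, 81.3 and 111 on control arrays 1, 2 and 3. Before normalization its groups overlapped, since knockdown array 6, the array with the lowest median signal, lay under control array 1. Normalized levels were 6.18, 7.12 and 6.54 log2 units in knockdown and 5.94, 4.98 and 5.93 in control, which no longer overlapped. The log2 fold change was 1.00 ± 0.34 (SE), or 2.00-fold with an interval from 1.17 to 3.41, the smallest of the 4 probes. Both probes of this gene thus lay higher in knockdown, at differences whose intervals overlap.

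The Prl2c3 probe, ILMN_2875585, was the only one of the 4 detected on all 6 arrays. Its signals were 199, 274 and 189 on knockdown arrays 4, 5 and 6, against 156, 94.9 and 132 on control arrays 1, 2 and 3. It averaged 7.34 ± 0.36 log2 units in knockdown and 6.07 ± 0.51 in control (SD, n = 3 each), without overlap. The log2 fold change was 1.26 ± 0.30 (SE), or 2.40-fold with an interval from 1.49 to 3.87.

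The Prl2c4 probe, ILMN_2996648, had signals of 163, 241 and 163 on knockdown arrays 4, 5 and 6, against 141, 82.1 and 112 on control arrays 1, 2 and 3. The arrays of the groups did not overlap here either. It averaged 7.02 ± 0.46 log2 units in knockdown and 5.70 ± 0.60 in control (SD, n = 3 each), a log2 fold change of 1.32 ± 0.35 (SE) or 2.49-fold, with an interval from 1.43 to 4.33.

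**Figure D1:**
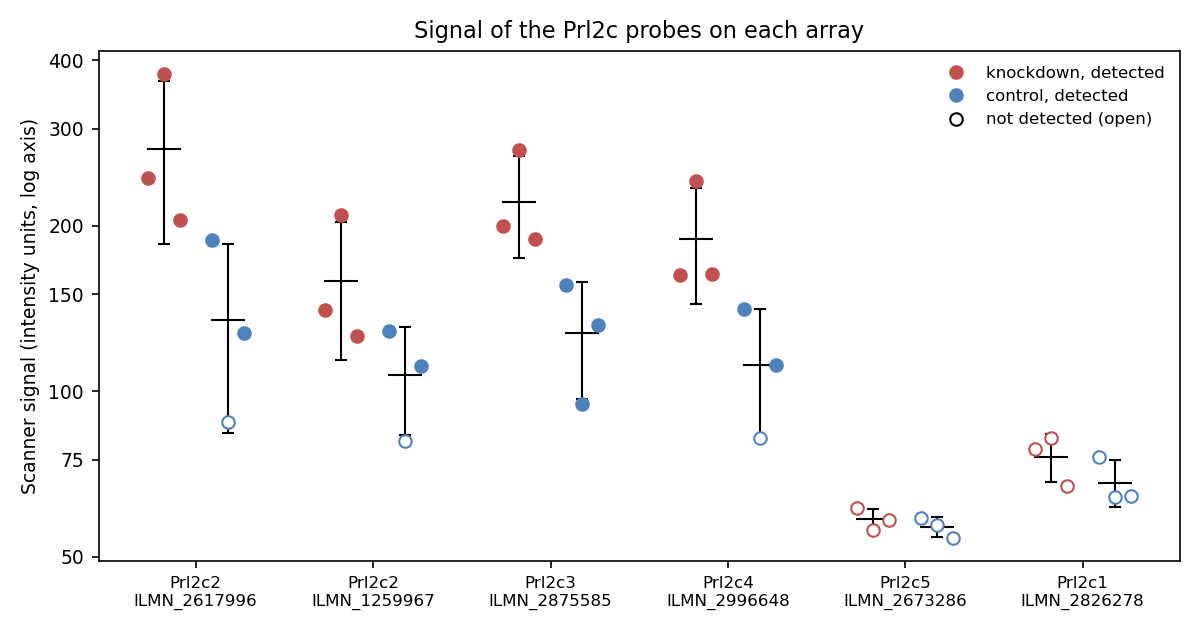
Scanner signal in intensity units (log axis) of the 4 proliferin probes and of the Prl2c5 and Prl2c1 probes, with 1 point per array, knockdown left of control, and bars for mean ± SD (n = 3). Filled points are detected at p under 0.05. The 4 proliferin probes are lowest on control array 2, open for 3 of them, while Prl2c5 and Prl2c1 are open on all 6 arrays.

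After normalization the groups did not overlap for any of the 4 probes, and 3 of the 4 reached a fitted change of 2-fold before rounding. Among all 16349 probes tested, the knockdown arrays lay entirely above the control arrays for 4.13%, and 0.153% reached 2-fold upward. By size of the upward change the probes ranked 5, 10, 11 and 27, with Prl2c2 both first and last of the 4. As the probes were chosen on this contrast, these shares are context and not evidence. The count at 2-fold depends on the processing, since without background correction only ILMN_2617996 reached it, at a log2 fold change of 1.07.

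The probes moved together from array to array inside each group as well. After normalization all 4 were highest on knockdown array 5, followed by arrays 6 and 4, and all 4 were lowest on control array 2. In the scanner signals array 4 lay above array 6 for both Prl2c2 probes and for Prl2c3. For the brighter Prl2c2 probe, the distance from its mean over the 6 arrays was 0.42, 1.25 and 0.75 log2 units on knockdown arrays 4, 5 and 6, and -0.14, -1.68 and -0.59 on control arrays 1, 2 and 3. After the group means were taken out, the 6 pairs of probes correlated at r = 0.93 to 0.99 over the 6 arrays. These values describe probes that may share transcripts and always share arrays, so they are not 4 separate observations of the difference.

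Of the 6 arrays, leaving out control array 2 lowered the differences most. On it the 4 probes were at 4.98 to 5.48 log2 units, where the dimmest probe detected on that array was at 5.33. Without that array the probes were 1.61-fold, 2.27-fold, 1.97-fold and 1.98-fold higher in knockdown, in the order ILMN_1259967, ILMN_2617996, Prl2c3 and Prl2c4. Without background correction the log2 fold changes were 0.57, 1.07, 0.82 and 0.79 in that order.

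**Figure D2:**
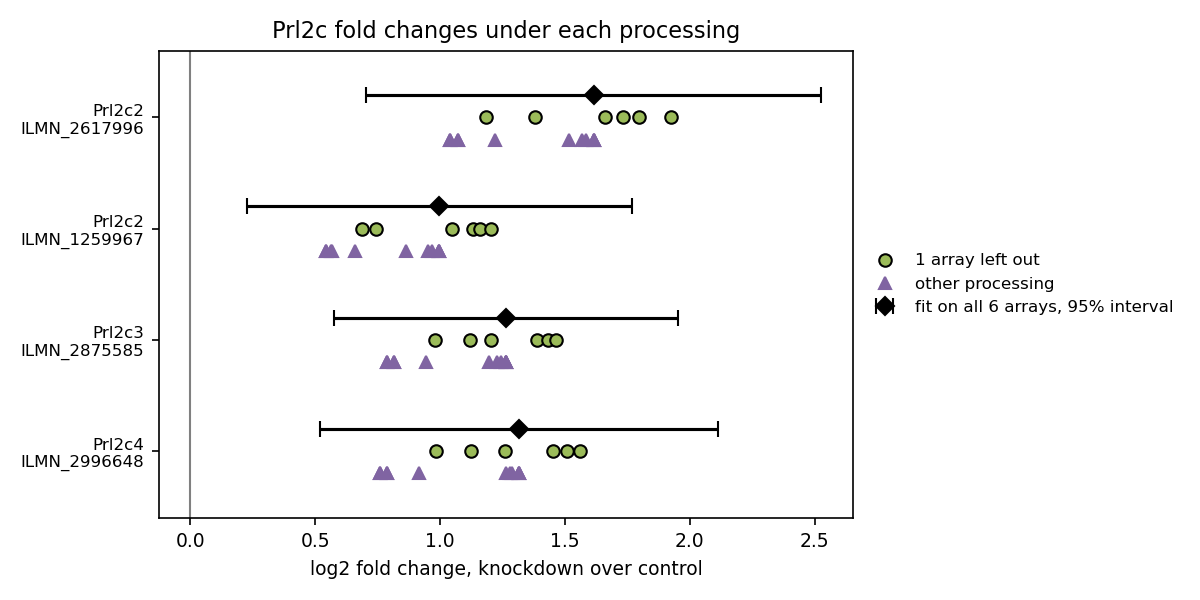
Log2 fold change of knockdown over control for each proliferin probe. Diamonds with bars are the fit on all 6 arrays with its 95% interval, circles leave out 1 array each and triangles use another processing. All points lie above 0, between 0.54 and 1.92.

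No other gene of the prolactin family gave a signal that could be followed. The array held 31 probes for 25 genes of the family, and the 27 probes outside the 3 proliferins did not enter the fit, which asked for detection on all 3 arrays of a group. Of these 27, 26 were not detected on any array. Prl2c5, the copy whose promoter is shown above, had signals of 61.2, 56.0 and 58.2 on the knockdown arrays and 58.7, 57.1 and 54.0 on the control arrays. Prl2c1, the remaining Prl2c gene on the array, was not detected either, at 78.6, 82.0 and 67.3 in knockdown and 75.9, 64.2 and 64.3 in control. Both lay near the median signal of their arrays or under it, so no level can be given for them. Prl8a9 was detected on knockdown arrays 4 and 6 and control array 2, at 109 and 94.7 in knockdown and 93.6 in control. The probe of Prl7d1, known as proliferin-related protein and an inhibitor of vessel growth, was not detected, with signals of 62.5 to 68.0 in knockdown and 65.7 to 70.9 in control.

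Tdrd7, the target of the hairpin, had signals of 295, 252 and 308 on knockdown arrays 4, 5 and 6, against 854, 804 and 905 on the control arrays. Its log2 fold change was -1.85 ± 0.28 (SE), with a limma adjusted p of 0.49 over all 16349 probes. Of these probes, 0.00612% passed an adjusted p of 0.05, which is 1 probe, lower in knockdown. It is ILMN_2476405, with no symbol in the annotation and a log2 fold change of -7.55, and it was noted after its values were seen. The median log2 fold change of all probes was 0.0034. Knockdown array 4 stood slightly apart, with a correlation to the rest of 0.958 on average, where each of the other 5 had 0.971 to 0.976. It was the lowest of the knockdown arrays for each proliferin probe after normalization. Without it the log2 fold changes were 1.20, 1.79, 1.46 and 1.56, in the order ILMN_1259967, ILMN_2617996, Prl2c3 and Prl2c4.

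Genes of the receptor and the tag that proliferin uses were expressed. All 6 genes of the mannose 6-phosphate list were tested, through 9 probes. In limma 0 of the 9 passed an adjusted p of 0.05, which 0.00612% of all 16349 probes passed. With so few passing, a count of 0 says little about this list or those below. An unadjusted p under 0.05 was found for 0 of the 9 and for 3.23% of all probes. The list's median log2 fold change was -0.06, and its sign turned in 3 of 18 alternatives. Igf2r, the receptor that binds proliferin, had overlapping groups on its brightest probe (log2 fold change -0.18 ± 0.25, SE). That probe was at 9.73, 9.38 and 9.34 log2 units in knockdown and 9.39, 10.14 and 9.47 in control. M6pr, the smaller mannose 6-phosphate receptor, was at -0.02 ± 0.20 on its brightest probe. The transferase subunits that build the tag were at 0.14 ± 0.22 for Gnptg and 0.18 ± 0.33 for Gnptab, and Nagpa, the enzyme that uncovers it, was at -0.12 ± 0.19. Igf2, the growth factor that shares Igf2r with proliferin, varied widely within groups, at 8.43, 5.40 and 6.10 in knockdown and 8.03, 6.63 and 9.37 in control (-1.37 ± 0.86).

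Genes of prolactin and growth hormone receptor signalling had 8 of 9 listed genes on the array and 6 tested, through 10 probes. None of the 10 passed in limma, 1 had an unadjusted p under 0.05 (3.23% of all probes), and the median log2 fold change was -0.01. Prlr, the prolactin receptor, had no probe under that symbol. Socs2, a feedback inhibitor that STAT5 induces, was the member with the unadjusted p under 0.05. It was at 9.10, 7.54 and 7.85 log2 units in knockdown and 6.65, 7.54 and 7.23 in control, a log2 fold change of 1.02 ± 0.41 (SE) with a limma adjusted p of 1.00. Its lowest knockdown array and its highest control array were equal to 2 decimals. Cish, another STAT5 target, was at 0.43 ± 0.40. On their brightest probes Ghr, the growth hormone receptor, was at 0.09 ± 0.20 and the kinase gene Jak2 at -0.06 ± 0.21. The other tested Ghr probes were at -0.56 ± 0.47 and -0.02 ± 0.19. Stat5a, the transcription factor of the pathway, was at -0.10 ± 0.16 on its brightest probe, and Socs3, another feedback inhibitor, at -0.03 ± 0.34.

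Of 10 listed AP-1 and glucocorticoid receptor genes, 7 were tested, and none of their 7 probes passed in limma or had an unadjusted p under 0.05. Their median log2 fold change was 0.17, which fell below 0 without control array 3, where 8 probes entered, or without knockdown array 4. Fos was at 12.56, 11.90 and 8.41 log2 units on knockdown arrays 4, 5 and 6 and at 12.17, 12.18 and 8.66 on control arrays 1, 2 and 3. Its low arrays were knockdown array 6 and control array 3. On control array 2, where all 4 proliferin probes were lowest, it was as high as on control array 1. Fosb, a relative of Fos, was at 10.01, 8.06 and 5.89 in knockdown and 8.48, 9.41 and 5.52 in control, with the same low arrays. Jun was at 9.11, 9.11 and 8.36 in knockdown and 9.28, 8.98 and 8.31 in control (0.01 ± 0.31, SE). Fosl2 was at 10.43, 10.04 and 10.50 in knockdown and 10.74, 9.38 and 10.17 in control (0.23 ± 0.34), so it was lowest on control array 2, as the proliferin probes were. Junb was at -0.12 ± 0.53 and Jund at 0.19 ± 0.38. A relation between these RNA levels, or AP-1 activity, and the proliferin levels was not tested.

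**Figure D3:**
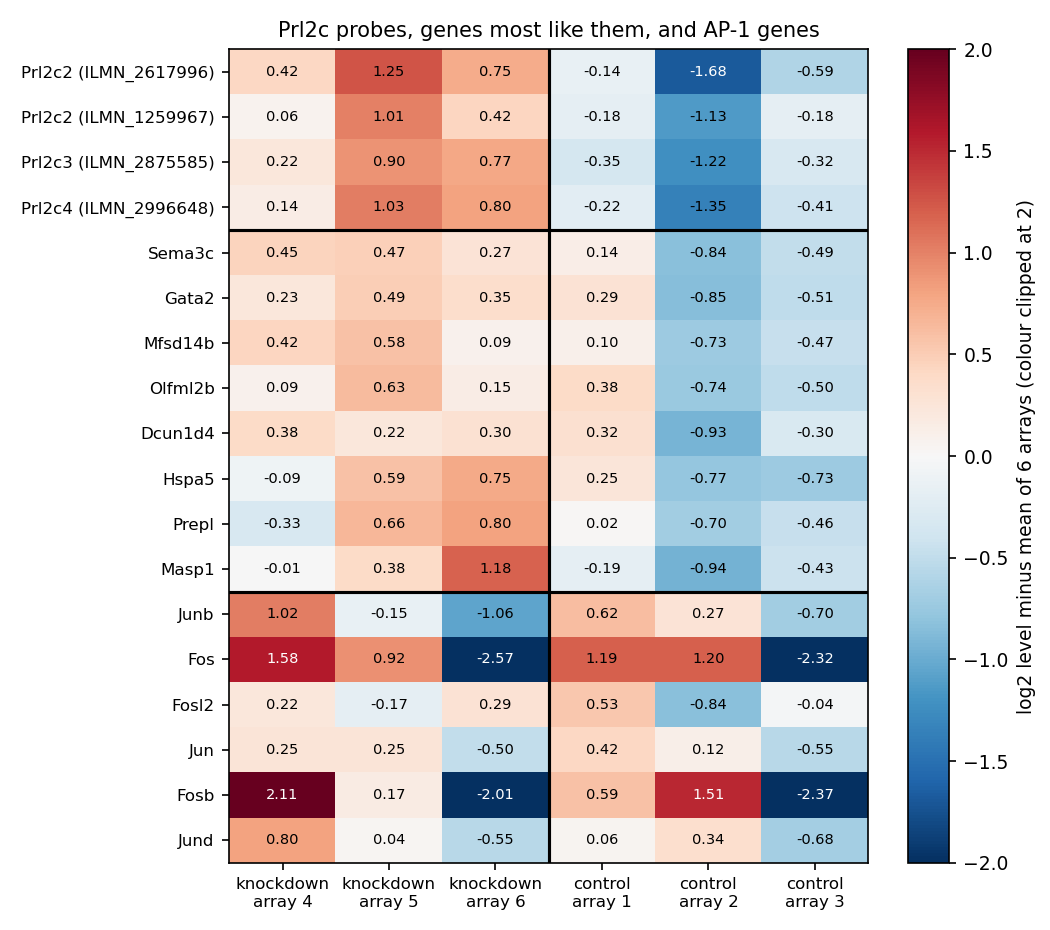
Normalized log2 level minus its mean over the 6 arrays for the 4 proliferin probes (top), the 8 genes most like the brighter Prl2c2 probe (middle) and 6 AP-1 genes (bottom), with knockdown arrays 4 to 6 left of control arrays 1 to 3. Colour is clipped at 2 log2 units and each cell prints its value. The top and middle blocks are lowest on control array 2, where Fos is at 1.20.

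Likeness to the brighter Prl2c2 probe was measured as Pearson's r over the 6 arrays, among 1105 genes whose SD over the arrays was at least 0.5 log2 units. The other proliferin probes had r = 0.97 to 0.99. Of the 1105 genes, 3 reached 0.9 and 0 reached -0.9. The closest were Sema3c, a secreted guidance protein, at r = 0.94, Gata2, a zinc finger transcription factor, at 0.93, and Mfsd14b, a membrane transporter, at 0.92. They were followed by the matrix protein gene Olfml2b (0.88), the neddylation gene Dcun1d4 (0.87), the endoplasmic reticulum chaperone gene Hspa5 (0.87), the peptidase gene Prepl (0.85) and the complement protease gene Masp1 (0.84). All 8 were lowest on control array 2, as the proliferin probes were. Sema3c and Mfsd14b were not detected on that array, so their low point is near background. Sema3c was not detected on control array 3 either. Gata2 was at 7.49, 7.75 and 7.61 log2 units in knockdown and 7.55, 6.41 and 6.75 in control, so its groups overlapped. Masp1 was at 9.01, 9.40 and 10.20 in knockdown and 8.83, 8.08 and 8.59 in control, without overlap. The r values come from 6 arrays that fall into 2 groups and share control array 2 as the low point, so they rank genes and do not test a relation.

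The genes next to the proliferins on chromosome 13 had fitted changes near 0. The 10 genes on either side of each proliferin gene in the RefSeq table came to 24, of which 6 were on the array and 4 were tested, through 6 probes. None of the 6 passed in limma or had an unadjusted p under 0.05, and their median log2 fold change was 0.02. Heatr1, a gene of ribosome production, was at 0.00 ± 0.38 (SE) on its brightest probe, Lgals8, which encodes a galectin, at 0.03 ± 0.19 and Ero1b, an oxidase of the endoplasmic reticulum, at 0.12 ± 0.20. The pseudogene Gpr137b-ps was at 0.18 ± 0.25. The difference between these genes and the proliferins was not tested.

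Other factors that act on vessels lay on both sides of 0. Of 13 listed genes, 8 were tested through 9 probes, 5 above and 4 below control. In limma 0 of the 9 passed and 1 had an unadjusted p under 0.05 (3.23% of all probes). The median log2 fold change was 0.13. Without control array 2 it was -0.28, but over 11 probes, since the detection filter was applied anew, so the 2 medians cover different sets. Adm, which encodes the vessel hormone adrenomedullin, was at 9.18, 8.86 and 8.69 log2 units in knockdown and 10.17, 10.44 and 10.75 in control, without overlap. Its log2 fold change was -1.54 ± 0.22 (SE), with a limma adjusted p of 0.49, opposite in sign to the proliferins. The vascular growth factor gene Vegfa was at 0.63 ± 0.30 on its brightest probe, with overlapping groups, and its relatives were at 0.13 ± 0.16 for Vegfb, 0.22 ± 0.19 for Vegfc and 0.17 ± 0.38 for Vegfd. Angpt2, a ligand of the vessel receptor Tek, was at -0.31 ± 0.32.

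**Figure D4:**
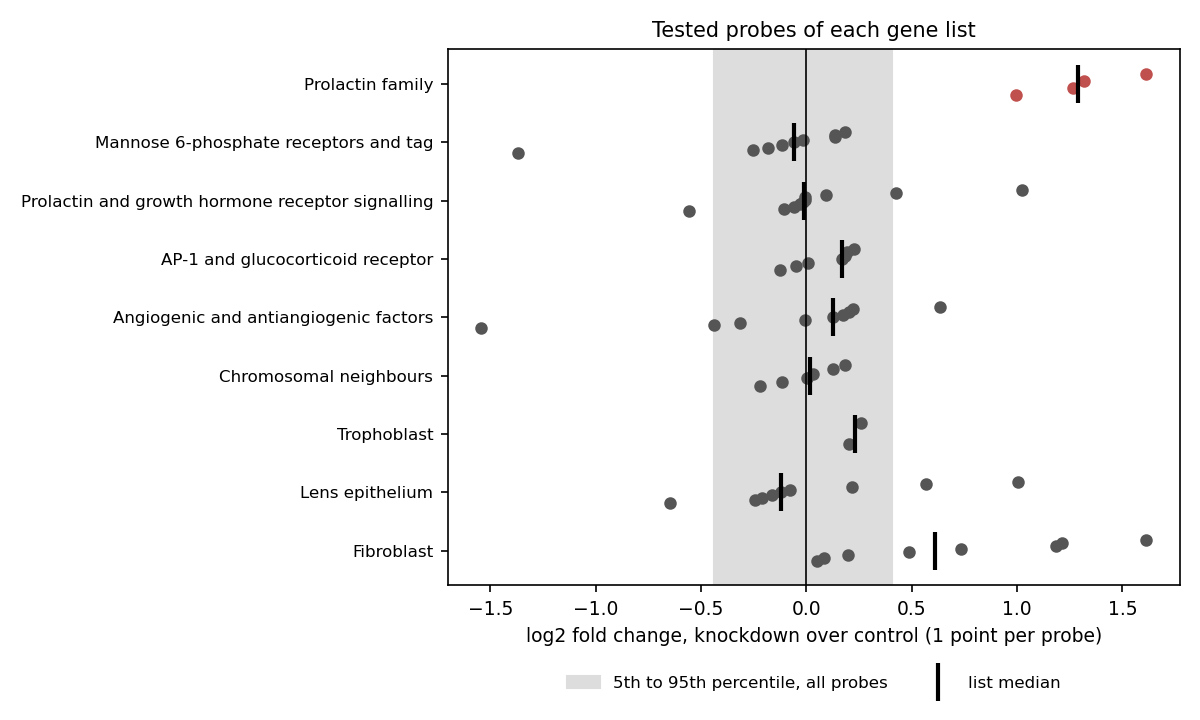
Log2 fold change of knockdown over control for each tested probe of 9 gene lists, with the list median as a bar and the 5th to 95th percentile of all 16349 probes in grey (-0.44 to 0.41). The 4 proliferin probes are the tested probes of the prolactin family and were chosen on this contrast. No other probe shown passed the adjusted threshold, which 0.00612% of all probes passed.

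Markers of other cell types were set beside the proliferin values. Of 13 trophoblast genes on the array, 11 were not tested, among them Hand1, Ascl2, Tpbpa, Cdx2, Eomes and Elf5, which mark that lineage and were not detected on any array. The tested members were Psg23 at 0.26 ± 0.18 log2 units (SE) and Rhox5 at 0.20 ± 0.22. The summed signal of the 21 trophoblast probes was 1481 to 1660 in knockdown and 1436 to 1635 in control, so it overlapped. No macrophage or endothelial gene of the lists was tested, since none was detected on all arrays of a group. Of 13 lens epithelium genes, 7 were tested. The water channel genes Aqp1 (-0.08 ± 0.16) and Aqp5 (0.57 ± 0.36), the gap junction gene Gja1 (-0.16 ± 0.22), the crystallin gene Cryab (-0.21 ± 0.31) and the transcription factor genes Six3 (0.22 ± 0.21), Prox1 (-0.65 ± 0.53) and Pax6 (1.00 ± 0.33) were present. Foxe3, a defining factor of lens epithelium, was not detected on any array, nor were Sox1 and Crybb2. None of the 9 lens probes passed in limma, 1, that of Pax6, had an unadjusted p under 0.05 (3.23% of all probes), and the list's median was -0.12, below 0 in all 18 alternatives.

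Fibroblast genes, as a list, averaged higher in knockdown beside the proliferins, though their groups overlapped and none passed the test. All 8 tested probes, for 7 of 10 genes, were above 0, as were 50.6% of all probes. Their median log2 fold change was 0.61, where the median of all probes was 0.0034. After normalization the knockdown arrays lay entirely above the control arrays for 0 of the 8. They did so for all 4 proliferin probes, chosen on this contrast, and for 4.13% of all probes. The list's median was 0.11 over 19 probes without a filter on dim probes and 1.00 over 9 probes without knockdown array 5. In limma 0 of the 8 passed and 2, Col3a1 and Col1a1, had an unadjusted p under 0.05 (3.23% of all probes). The summed scanner signal of the list's 19 probes was 31818 to 60926 in knockdown and 31069 to 38774 in control, so it overlapped. Most of it came from the brightest Vim probe, at 22737.8 to 38025.2 in knockdown and 25478.5 to 29280.1 in control. Dcn, which encodes the matrix protein decorin, was at 12.25, 9.68 and 10.79 log2 units on knockdown arrays 4, 5 and 6 and at 9.82, 8.63 and 10.72 on control arrays 1, 2 and 3. Its log2 fold change was 1.19 ± 0.69 (SE), and it was highest on knockdown array 4, where the normalized proliferin levels were the lowest of their group. The collagen gene Col3a1, named after its values were seen, was at 1.61 ± 0.61, a fitted change as large as that of the brighter Prl2c2 probe. The collagen gene Col1a1 was at 0.73 ± 0.31 (SE) and the growth factor receptor gene Pdgfra at 0.49 ± 0.23, while Vim, at 0.05 ± 0.24, Pdgfrb, at 0.08 ± 0.30, and Thy1, at 0.20 ± 0.51, were nearer to 0. More cells of a type and more RNA per cell cannot be told apart in such bulk samples. The part of these genes in the proliferin difference was not tested.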

How the data were processed

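RNA of 6 samples was measured, 3 per group, and the number of arrays limits the precision. Per the labels' protocols, column-purified RNA was converted to biotinylated cRNA. The authors deposited a scanner table that holds, per the file headers, a linear intensity and a detection p-value for each probe and array, and a second table of intensity values. How they made either one is not given in the sources used here. Each column of the second table followed 1 scanner column of its group by a linear equation (largest residual 0.011 units, slopes 0.763 to 1.29, column medians 78.4 to 81.6), so it is linear, not centred by gene, and runs the same way. Scanner columns name a group but no replicate, so they were fitted by group alone.

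Intensities were background-corrected, quantile-normalized and put on the log2 scale by neqc (limma 3.58.1, R 4.3.3) with the offset set to 16, which shrinks the fold changes of dim probes. With an offset of 50 the proliferin log2 fold changes were smaller, at 0.66, 1.22, 0.94 and 0.91 for ILMN_1259967, ILMN_2617996, Prl2c3 and Prl2c4. No other processing of all 6 arrays gave a larger value than the main fit for any of these probes. To enter, a probe needed a detection p under 0.05 on every array of 1 group or of both, and 16349 did. Each probe was fitted with lmFit and eBayes, with group as the only term, and p-values were adjusted by Benjamini-Hochberg over all of them. Symbols came from the platform annotation (1 symbol for 34885 probes, several for 18, none for 10378), and 34807 probes matched a RefSeq gene identifier. As a check of the code, the fit was run on simulated data with noise drawn for each probe separately. That check does not cover noise that probes share. Named genes were all probes of the 3 proliferins, up to 6 tested genes per list by mean level, detected lens and trophoblast markers, Tdrd7 and the 8 genes most like the brighter Prl2c2 probe. Members and lists were chosen with earlier results of these data known. Alternatives were other background corrections, normalizations and filters, the authors' second table, a robust trended variance, weights for arrays and fits without 1 array each. Figures used matplotlib 3.10.9, and promoters were aligned with Biopython 1.88.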

Additional observations from a re-analysis of the deposited data

How the results depend on the processing

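All 4 proliferin probes stayed higher in knockdown under each alternative that gave them a value, 18 for Prl2c3 and 17 for the others. The alternatives reuse the arrays on which the probes were chosen, so these counts are not separate support for the difference. A change of filter or of variance model also leaves a probe's fitted change as it was. The filter for detection on all 6 arrays keeps Prl2c3 alone, since the other 3 probes were not detected on control array 2. Of these alternatives, the authors' processed values, with or without the replicate block, gave the smallest log2 fold changes for all 4 probes. With normexp and an offset of 50 the log2 fold change of Prl2c3 was 0.81, without background correction 0.82, and on the authors' processed values it was 0.79, where Prl2c4 was at 0.76. The replicate block was fitted on those processed values alone, because the scanner columns are named by group without a replicate number. In this balanced design the block cannot change the values, which stayed at 0.79 and 0.76, but only their intervals. With the block the interval for the Prl2c2 probe ILMN_1259967 ran from -0.06 to 1.14. That probe's interval also reached below 0 without control array 2 and without knockdown array 5. Same-numbered samples had deviations that correlated at -0.10, 0.13 and 0.57 for replicates 1, 2 and 3. Across unlike numbers the values ran from -0.46 to 0.23, so that of replicate 3 was the highest. The main fit did not take the numbers as pairs, and a factor shared by the replicate 3 samples was not tested. The block raised the number of probes with an unadjusted p under 0.05 to 803, against 486 without it.

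Leaving out each array in turn gave log2 fold changes of 0.69 to 1.20 for ILMN_1259967, 1.18 to 1.92 for ILMN_2617996, 0.98 to 1.46 for Prl2c3 and 0.98 to 1.56 for Prl2c4. In each case the lowest value was that without control array 2. The number of probes changed was 1 in all of these fits and 0 when detection on all 6 arrays was asked for, because the called probe was not detected on knockdown array 5. In that fit 416 of 14991 probes had an unadjusted p under 0.05 in limma. Of the probes of the lists other than the proliferins, 0 passed an adjusted p of 0.05 in limma under any of the 18 alternatives, and the proliferin probes, given without a test, are not part of that count. Slide could not be fitted, as the files used here give none. Low signal also limits the proliferin values, since 3 of the 4 probes were not detected on control array 2.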
